A study of Mus musculus with 8 samples.

Results

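The genes described here encode the subunits of the mitochondrial respiratory chain and of the ATP synthase, as far as they lie in the nuclear genome. They were taken by symbol from a table of 24421 genes: symbols starting with Nduf and a letter a, b, c, s or v and a digit (complex I), with Uqcr, or Cyc1 itself (complex III), with Cox and a digit from 4 to 8 (complex IV), and with Atp5 (complex V). This gave 81 genes, 37 for complex I, 9 for complex III, 18 for complex IV and 17 for complex V. Of these, 75 had enough reads to be tested (36, 9, 13 and 17 in the same order). RNA was sequenced from Flvcr2 knockout (n = 4 libraries) and Flvcr2 heterozygous (n = 4) brain endothelial cells of C57Bl6 mouse embryos at E14.5 (embryonic day). Flvcr2 encodes a membrane transporter, and its mutant allele makes cells express GFP, so both groups carry that allele and heterozygous rather than wild-type cells are what knockout cells were set against. Sorting took cells that carried both GFP and the endothelial surface protein CD31, and each library was made from 2000 to 5000 of them. The labels do not say which bases of Flvcr2 are missing, whether embryos were pooled, or whether each library stands for its own embryo. The p-values therefore reflect how much these libraries vary, and some of that variation may be technical.

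The respiratory chain passes electrons from NADH (complex I) or succinate (complex II) through ubiquinone to complex III, through cytochrome c to complex IV, and from there to oxygen, and the protons pumped on the way drive the ATP synthase (complex V). Most subunits are encoded in the nucleus, while several core membrane subunits of complexes I, III, IV and V are encoded in the mitochondrial genome; these mitochondrial genes were not analysed here. Endothelial cells are known to draw much of their ATP from glycolysis, and their respiratory chain is also known for keeping NAD+ and aspartate supply going. Some subunits exist as isoforms from separate genes, which differ in the tissues or oxygen levels at which they are used.

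In the knockout cells the subunit genes as a set stayed close to their level in heterozygous cells, and none passed the test. Of the 75 tested genes, 0 were called higher and 0 lower (edgeR quasi-likelihood test, Benjamini-Hochberg adjusted p under 0.05 over 13540 genes), while 9.55% of all tested genes were called, 5.53% higher and 4.02% lower. At an unadjusted p under 0.05, 3 of the 75 passed (Atp5b and Atp5g1 higher, Cox4i2 lower), against 25.6% of all tested genes. DESeq2 called 2 (Atp5b and Cox4i2), against 16.2% of all genes in that fit, and limma voom called 2 (Cox4i2 and Ndufa4l2), against 10.7%. The median log2 fold change of the 75 genes, knockout over heterozygous, was 0.06, beside -0.03 over all tested genes; 49 were above 0 and 26 below.

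The errors were small enough to bound most of these differences. The 95% interval of the fold change lay within 1.5-fold of no change, in either direction, for 37 of the 75 genes and within 2-fold for 71. The 4 with wider intervals were Cox4i2, Ndufa4l2, Cox6b2 and Cox7c. By complex, intervals within 2-fold were found for 35 of 36 genes of complex I, 9 of 9 of complex III, 10 of 13 of complex IV and 17 of 17 of complex V. The groups did not overlap for 3 genes (Atp5a1 and Atp5b higher in every knockout library, Cox4i2 lower), beside 17.6% of all tested genes (9.70% higher and 7.90% lower). Scaling matters at this size of effect. With library size alone in place of TMM factors, the median over all genes moved to -0.15 and that of the 75 genes to -0.06.

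**Figure D1:**
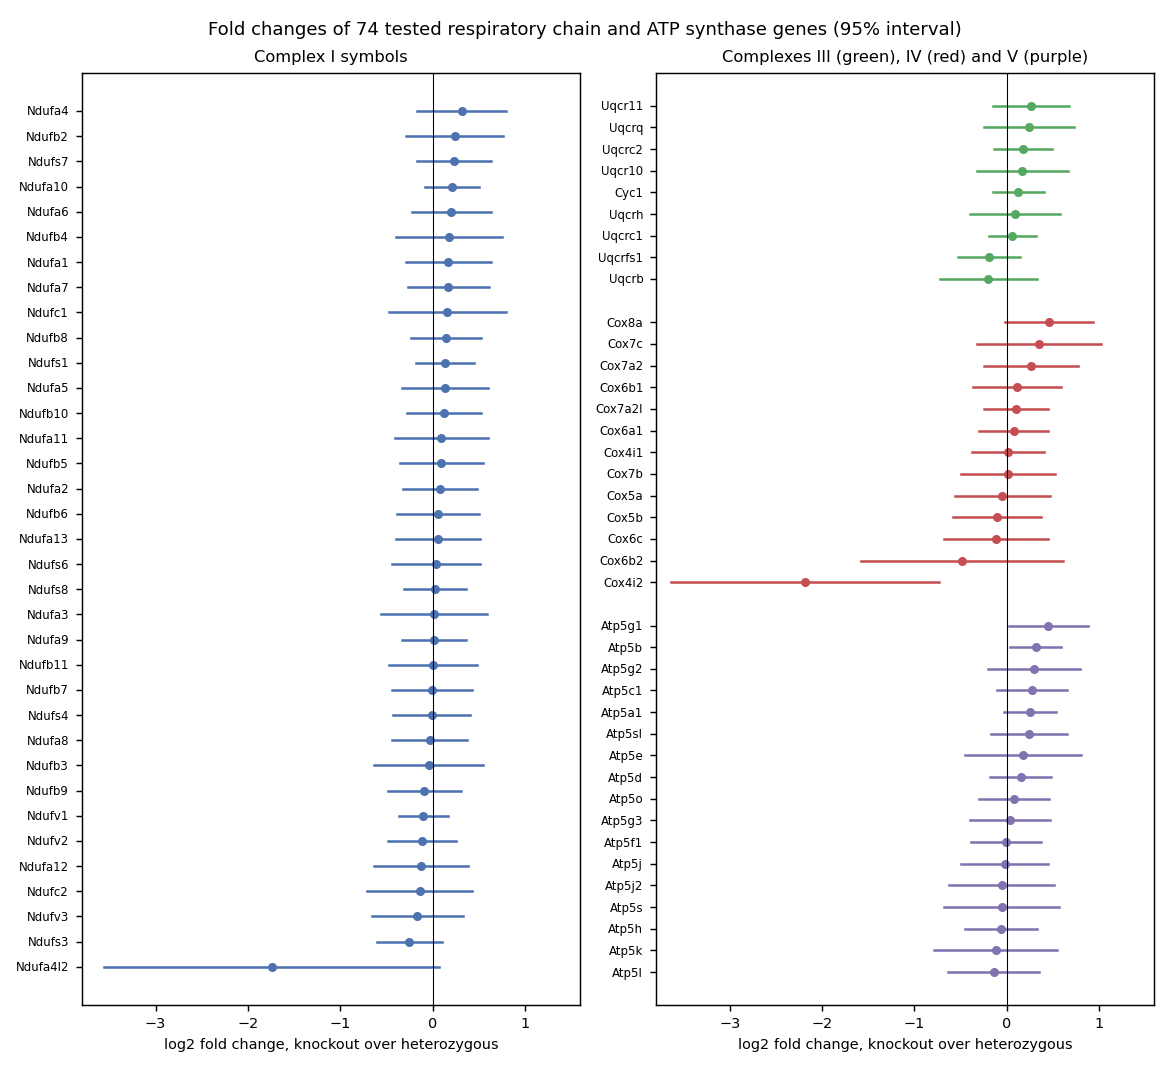
Log2 fold change, knockout over heterozygous, of 74 of the 75 tested genes (points) with its 95% interval (lines), n = 4 libraries per group; genes run from the highest to the lowest value within each complex. Nearly all points lie close to 0, and Cox4i2 (-2.18) and Ndufa4l2 (-1.74) lie far to the left of the others.

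Transcripts of many of these genes are known to be driven by NRF1 and by ETS factors such as GABPA, which bind near the start site. Promoter windows from 250 bases before to 50 bases after the start were available for 66 of the 81 genes (RefSeq, GRCm38.p6). The letters GCATGCGC, a part of the NRF1 site, were found on either strand in 9 of the 66 (13.6%), against 3.93% of 17491 protein-coding genes. The letters CCGGAAGT, an ETS site, were found in 5 (7.58%), against 5.69%. A match describes the letters only. Below are 1 promoter for each complex, each with a match that lies wholly before the start, 5′ to 3′ on the gene's own strand and ending at the base before the start; the matched letters are in capitals, and where GCATGCGC matches on both strands the pair of matches overlaps and reads as 1 run of capitals.
Ndufa11 (complex I, chr17:56717662-56717761, + strand): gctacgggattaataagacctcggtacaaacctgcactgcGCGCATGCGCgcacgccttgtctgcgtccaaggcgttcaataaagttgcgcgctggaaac
Uqcr11 (complex III, chr10:80406822-80406921, - strand; the ETS letters): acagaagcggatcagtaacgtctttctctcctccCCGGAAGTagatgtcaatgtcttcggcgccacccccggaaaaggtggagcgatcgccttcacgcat
Cox6a1 (complex IV, chr5:115348959-115349138, - strand): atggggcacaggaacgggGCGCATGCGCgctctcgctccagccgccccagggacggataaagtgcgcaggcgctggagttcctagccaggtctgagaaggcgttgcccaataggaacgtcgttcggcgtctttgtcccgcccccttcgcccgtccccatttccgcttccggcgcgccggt
Atp5g2 (complex V, chr15:102671048-102671147, - strand): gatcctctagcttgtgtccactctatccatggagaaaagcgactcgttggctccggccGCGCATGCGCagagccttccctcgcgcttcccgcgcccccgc
The log2 fold changes of these 4 genes were 0.10 for Ndufa11, 0.26 for Uqcr11, 0.07 for Cox6a1 and 0.30 for Atp5g2, and over the 9 genes with the NRF1 letters they ran from -0.14 (Atp5l) to 0.30 (Atp5g2). The NRF1 gene itself (Nrf1) had a log2 fold change of -0.14 ± 0.21 (SE) and Gabpa one of -0.29 ± 0.17, and neither was called (edgeR adjusted p = 0.723 and 0.320).

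The libraries held 21.0, 12.1, 17.9 and 35.9 M counts in knockout 1 to 4 and 9.56, 9.11, 22.6 and 18.0 M in heterozygous 1 to 4. All 8 endothelial markers on a list for the purpose were present and tested, and CPM (counts scaled to the size of the library) is the unit of the levels below. Emcn was called higher, and the other 7 were not called: their log2 fold changes ran from -0.46 (Tek) to 0.90 (Flt1), with 0.71 for Pecam1, the gene of CD31, -0.45 for Cldn5 and 0.04 for Cdh5. Some markers of other cell types were called, each lower in knockout libraries, beside 4.02% of all genes called lower. These were 7 of 10 neuron, 3 of 9 radial glia and 2 of 9 pericyte and smooth muscle genes. For microglia 1 of 9 genes was called, and for erythroid cells 2 of 4 tested genes. Radial glia had 2 log2 fold changes above 0 (Nes 0.36, Vim 0.29) and microglia 1 (Ptprc 0.18), not called. The radial glia markers summed to a mean of 1430 CPM in knockout and 1360 CPM in heterozygous libraries. Most of these sums came from Vim (1059 and 868 CPM) and Nes (264 and 206 CPM), and the other 7 markers had log2 fold changes below 0. In pooled RNA, fewer cells of a type and less RNA per cell cannot be told apart. Flvcr2, listed as Mfsd7c, was at 393, 227, 260 and 326 CPM in knockout and 276, 444, 578 and 409 CPM in heterozygous libraries. Its log2 fold change was -0.50 ± 0.24 (SE; edgeR adjusted p = 0.209), the groups overlapped, and the value does not check the genotype labels.

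Libraries of the same genotype differed from each other in these genes. The ratio of the highest to the lowest library had a median over the 75 genes of 1.70 within knockout and 1.59 within heterozygous libraries. The same libraries were high or low for many genes. Knockout 2 was the highest of the 8 libraries for 53 of the 75 genes and heterozygous 4 for 14, while heterozygous 3 was the lowest for 38 and knockout 4 for 26. Knockout 4 and heterozygous 3 were also the libraries with the most counts. The summed level of all 81 genes was 19688, 26898, 20951 and 18656 CPM in knockout 1 to 4 and 20226, 19086, 16920 and 23387 CPM in heterozygous 1 to 4. Each group therefore held both a high and a low library, and the groups overlapped.

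Transcript length moved with the same libraries. Among members, the mean log2 CPM of the 25 genes of 600 nt or less minus that of the 20 genes of 1200 nt or more was -0.61, -0.35, -0.45 and -0.85 in knockout 1 to 4 and -0.53, -0.57, -0.85 and -0.29 in heterozygous 1 to 4. Knockout 4 and heterozygous 3 thus had the lowest values and knockout 2 and heterozygous 4 the highest. Genes outside the set ordered these libraries the same way at the extremes of each group: for 115 short against 7705 long genes the difference was 0.43, 1.09, 0.74 and 0.20 in knockout and 0.64, 0.42, 0.09 and 0.85 in heterozygous libraries. The part of length in the spread between libraries was not tested. With a length term per library, the median of the 75 genes was -0.03.

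**Figure D2:**
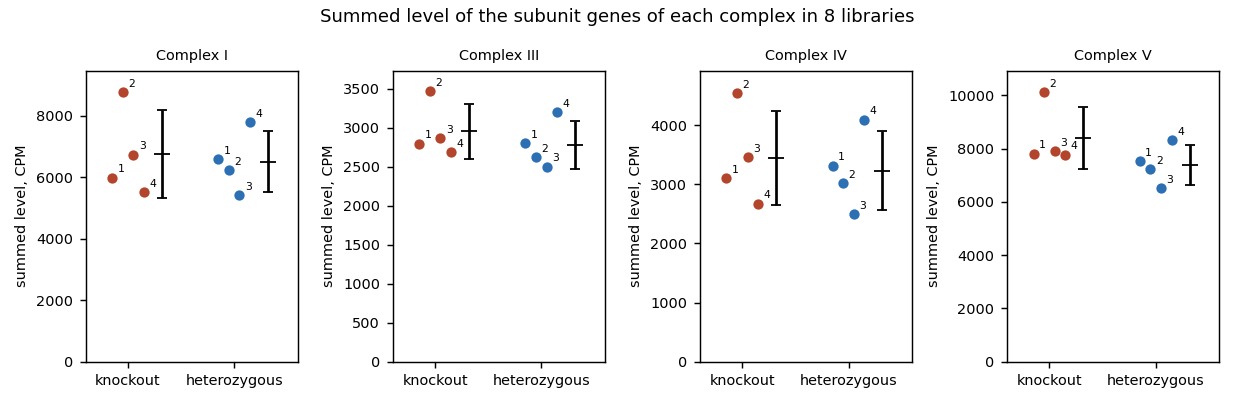
Summed level in CPM of the genes of complexes I, III, IV and V in each library (numbered points), with mean and SD beside them (n = 4 per group). In every panel knockout 2 and heterozygous 4 are the highest of their group, and the groups overlap.

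Complex I takes electrons from NADH. Its summed level was 5986, 8758, 6729 and 5522 CPM in knockout 1 to 4 and 6591, 6224, 5412 and 7784 CPM in heterozygous 1 to 4, with knockout 2 highest and heterozygous 3 lowest of all. The median log2 fold change of its 36 tested genes was 0.05, with 24 above 0 and 12 below. These values include Ndufa4 and Ndufa4l2, which bear complex I symbols. Both are left out of the values of complex IV and are described after it. The 7 core subunits of the electron path had a median of 0.02. Ndufv1, the subunit that binds NADH and flavin, had a log2 fold change of -0.10 ± 0.12. Ndufs1, a carrier of iron-sulfur clusters, had one of 0.14 ± 0.14. The lowest value among the core subunits was that of Ndufs3, at -0.25 ± 0.16 (edgeR adjusted p = 0.351). Ndufs1, Ndufs3 and Ndufv1 were singled out after their values were seen.

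The 27 tested accessory subunits of complex I had a median of 0.06 and ran from -0.17 (Ndufv3) to 0.24 (Ndufb2). None was called. Ndufb8, a membrane arm subunit and among the most abundant of complex I by counts, was at 336, 513, 374 and 345 CPM in knockout and 360, 341, 295 and 420 CPM in heterozygous libraries, with a log2 fold change of 0.15 ± 0.17. Knockout 2 was highest and heterozygous 3 lowest, and the groups overlapped. Ndufs5, another accessory subunit, was not tested: it had 3 counts in all, 1 each in knockout 1, knockout 3 and heterozygous 4. Of its annotated stretches of 50 bases, the read length, 22.9% also occur in the gene BC002163. The sources used here do not give how reads that fit several genes were counted. BC002163 itself had at most 4 counts in a library. Atp5g2, with 87.4% of such stretches shared, averaged 262 CPM in knockout and 213 CPM in heterozygous libraries. Why Ndufs5 was near 0 was not tested, and its level here says little about its transcript.

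Complex III passes electrons from ubiquinol to cytochrome c. Its summed level was 2794, 3469, 2866 and 2682 CPM in knockout and 2798, 2619, 2497 and 3194 CPM in heterozygous libraries, which overlapped. The median log2 fold change of its 9 genes was 0.13, with 7 above 0 and 2 below, and it was 0.00015 with library size alone as the scaling. Uqcrc1, a core subunit and the most abundant by counts, was at 852, 818, 794 and 888 CPM in knockout and 764, 809, 850 and 789 CPM in heterozygous libraries. Its log2 fold change of 0.06 ± 0.12 had a 95% interval from -0.20 to 0.32. Cyc1, which carries the haem of cytochrome c1, was at 417, 428, 361 and 438 CPM in knockout and 400, 338, 368 and 401 CPM in heterozygous libraries. The groups overlapped, and its log2 fold change was 0.13 ± 0.13. The Rieske iron-sulfur subunit Uqcrfs1, chosen after its values were seen, had a log2 fold change of -0.19 ± 0.15, and the values of the other 6 genes ran from -0.20 (Uqcrb) to 0.26 (Uqcr11).

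Complex IV, cytochrome c oxidase, hands the electrons to oxygen. Its summed level was 3102, 4541, 3459 and 2675 CPM in knockout and 3316, 3016, 2497 and 4095 CPM in heterozygous libraries. The median log2 fold change of its 13 tested genes was 0.02. Cox4i1, the common isoform of subunit 4, was at 772, 1007, 846 and 674 CPM in knockout and 822, 765, 646 and 1029 CPM in heterozygous libraries. The groups covered nearly the same range, and its log2 fold change was 0.02 ± 0.18, with an interval from -0.37 to 0.41. Cox6a1, the isoform of subunit 6A used outside muscle, had a log2 fold change of 0.07 ± 0.17. Cox8a, the ubiquitous subunit 8, was at 419, 609, 435 and 359 CPM in knockout and 322, 284, 259 and 460 CPM in heterozygous libraries. Apart from heterozygous 4, all heterozygous libraries were below all knockout libraries. Its log2 fold change of 0.46 ± 0.21 did not pass (edgeR adjusted p = 0.209). Cox6b1, Cox7a2 and Cox7b had log2 fold changes of 0.11 ± 0.22, 0.26 ± 0.23 and 0.01 ± 0.23. Cox7a2l, a factor of respiratory supercomplexes, had one of 0.10 ± 0.16.

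Tissue-restricted isoforms of complex IV were scarce. Cox6a2 and Cox7a1, known from heart and skeletal muscle, had at most 26 and 22 counts in a library, and Cox7b2 at most 5, and none of them was tested. Cox8b and Cox8c were at 0 in all 8 libraries, which allows a level of up to 0.318 CPM in the shallowest library (3 counts; counting error only). Cox6b2, known from testis, was at 4.86, 2.96, 3.64 and 3.81 CPM in knockout and 4.37, 5.31, 2.31 and 9.43 CPM in heterozygous libraries. The groups overlapped, and its log2 fold change of -0.49 ± 0.50 was not called.

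The largest fold changes among the tested members were those of a pair of minor isoforms, neither of which was called by edgeR with all 8 libraries. Cox4i2, the isoform of subunit 4 known to be used at low oxygen and, in mouse brain, by pericytes, was at 0.562, 2.18, 3.76 and 0.779 CPM in knockout 1 to 4 and 4.27, 9.45, 6.36 and 12.8 CPM in heterozygous 1 to 4. Every knockout library was below every heterozygous library. The log2 fold change was -2.18 ± 0.66 (SE), with a 95% interval from -3.63 to -0.73, and it did not pass (edgeR adjusted p = 0.0624); it was called by DESeq2 (log2 fold change -2.20, adjusted p = 0.00741) and by limma voom (-2.70, adjusted p = 0.0258), and in edgeR without knockout 3 (-2.82, adjusted p = 0.0272). Per length, Cox4i2 made up 0.219 ± 0.171% of the transcripts of the Cox4i1 and Cox4i2 pair in knockout and 1.02 ± 0.344% in heterozygous libraries (SD, n = 4 each). Cox4i1 supplied nearly all of this pair in both groups. The gene lies at chr2:152753916-152765039 (GRCm38), and none of its annotated stretches of 50 bases occurs in another gene.

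Ndufa4 is a subunit that bears a complex I name but is known to belong to complex IV, and Ndufa4l2 is its hypoxia-inducible relative, also known from brain pericytes. Ndufa4 was at 391, 606, 460 and 327 CPM in knockout and 355, 346, 264 and 466 CPM in heterozygous libraries, which overlapped. Its log2 fold change was 0.32 ± 0.22 and was not called. Ndufa4l2 was at 1.84, 9.23, 30.0 and 1.18 CPM in knockout and 22.5, 37.4, 25.5 and 54.8 CPM in heterozygous libraries. Knockout 1, 2 and 4 were below all heterozygous libraries, while knockout 3 lay among them. The log2 fold change of -1.74 ± 0.82 did not pass (edgeR adjusted p = 0.212); without knockout 3 it was -3.13 and was called (adjusted p = 0.0247). Per length, Ndufa4l2 made up 1.07 ± 1.38% of the Ndufa4 and Ndufa4l2 pair in knockout and 4.53 ± 1.07% in heterozygous libraries. An exon of Ndufa4l2 overlaps Shmt2 on the other strand. None of the annotated Ndufa4l2 stretches of 50 bases, the read length, occurs in another gene on either strand. With no strand setting stated for the counting, reads that lie partly in the overlap may have been counted for either gene. Shmt2, named for this overlap, moved the other way. It averaged 268 CPM in knockout and 138 CPM in heterozygous libraries (log2 fold change 0.96 ± 0.25, edgeR adjusted p = 0.0364). A part of Shmt2 reads in the Ndufa4l2 values was not tested.

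Pericyte and smooth muscle markers moved with these isoforms. The 9 markers, all tested, summed to 20.7, 57.4, 176 and 21.0 CPM in knockout 1 to 4 and to 165, 240, 210 and 281 CPM in heterozygous 1 to 4. Knockout 3 was the highest knockout library for the marker sum, for Cox4i2 and for Ndufa4l2, and heterozygous 4 was the highest heterozygous library for all 3. The defining pericyte genes Pdgfrb and Rgs5 were not called, at log2 fold changes of -1.79 ± 0.65 and -2.36 ± 0.71, while Cspg4 and Des were called lower, at -3.19 and -2.63 (edgeR adjusted p = 0.0451 and 0.0496). No marker was at 0 except Anpep in knockout 2. With the mean log2 CPM of the 9 markers as a covariate, an alternative chosen after the data were seen, the log2 fold change of Cox4i2 was -0.23 ± 0.92 and that of Ndufa4l2 was 1.14, and neither was called (edgeR adjusted p = 0.946 and 0.466). That fit called 0.318% of all genes, against 9.55% without a covariate. The covariate did not overlap between the groups, so the fit cannot separate it from genotype. A part of pericyte content in the lower isoform levels was not tested.

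**Figure D3:**
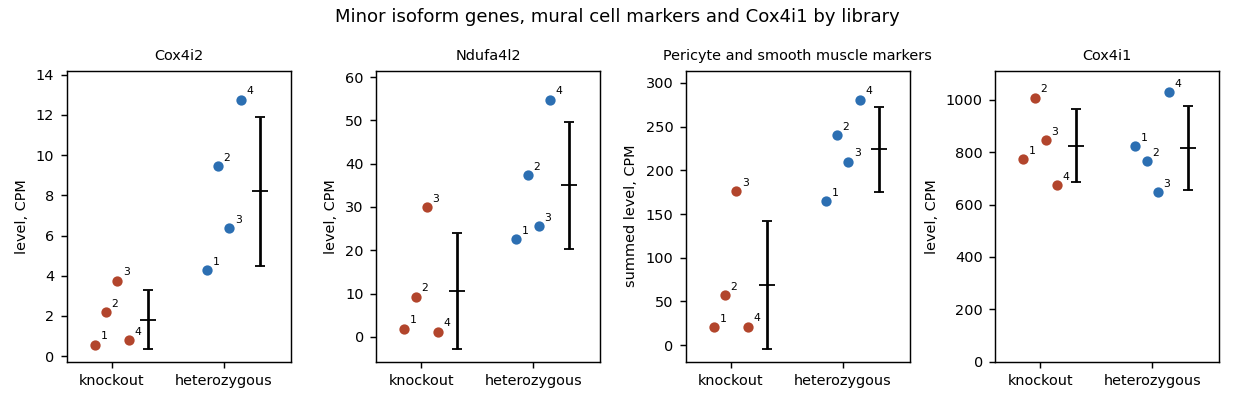
Level in CPM of Cox4i2, Ndufa4l2 and Cox4i1 and the summed level of 9 pericyte and smooth muscle markers in each library (numbered points), with mean and SD beside them (n = 4 per group). Cox4i2, Ndufa4l2 and the markers are low in knockout 1, 2 and 4 and higher in knockout 3, while Cox4i1 covers nearly the same range in both groups.

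Complex V, the ATP synthase, makes ATP in its soluble F1 part, which is driven by a ring of c subunits turning in the membrane. Its summed level was 7807, 10130, 7897 and 7778 CPM in knockout and 7522, 7226, 6514 and 8314 CPM in heterozygous libraries. Only heterozygous 4 reached the range of the knockout libraries. Atp5b, the catalytic beta subunit, was at 2529, 2761, 2339 and 2874 CPM in knockout and 2205, 2161, 2067 and 2013 CPM in heterozygous libraries. Every knockout library was above every heterozygous one. Its log2 fold change of 0.31 ± 0.12 (SE), with an interval from 0.04 to 0.59, was not called by edgeR (adjusted p = 0.141) and was called by DESeq2 (log2 fold change 0.30, adjusted p = 0.0438). Atp5a1, the alpha subunit, was at 1252, 1508, 1155 and 1267 CPM in knockout and 1099, 1090, 1049 and 1111 CPM in heterozygous libraries. These groups did not overlap either, and its log2 fold change was 0.25 ± 0.13 (edgeR adjusted p = 0.243). An exon of Atp5a1 overlaps Haus1 on the other strand.

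The parts of the ATP synthase differed in sign, by amounts that no test here separates. The 5 genes of F1 had a median log2 fold change of 0.25, with all 5 above 0. The 4 genes of the peripheral stalk (Atp5f1, Atp5h, Atp5j and Atp5o) had a median of -0.02, and the 3 accessory genes of the membrane part (Atp5j2, Atp5k and Atp5l) one of -0.12. With library size alone these medians were 0.13, -0.14 and -0.24. The negative medians of the stalk and membrane genes turned without single libraries. Without heterozygous 4, knockout 1 or knockout 4, the median of the membrane genes was 0.03, 0.05 and 0.07 and that of the stalk genes 0.12, 0.08 and 0.08, and without knockout 2 the median of the F1 genes was 0.12. With a score of neuronal, other-cell or pericyte markers as a covariate, the F1 median was 0.05, 0.00095 and 0.14. In the same order, the stalk median was -0.14, 0.04 and 0.28 and the membrane median -0.24, 0.12 and 0.45. Atp5sl and Atp5s, which carry Atp5 symbols but are not subunits, had log2 fold changes of 0.24 ± 0.19 and -0.06 ± 0.28.

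The c ring is built from 1 mature peptide that 3 genes encode. Atp5g1 was at 402, 531, 367 and 347 CPM in knockout and 307, 273, 231 and 394 CPM in heterozygous libraries, with a log2 fold change of 0.45 ± 0.19 (edgeR adjusted p = 0.175). Heterozygous 4 lay within the knockout range, and the other heterozygous libraries below it. Atp5g2 and Atp5g3 had log2 fold changes of 0.30 ± 0.23 and 0.04 ± 0.20, and neither was called. The mix of the 3 genes was steadier between libraries of a group than their levels. Of the counts of the 3 genes, Atp5g1 took 35.6 ± 1.93% in knockout (33.6 to 38.1%) and 30.3 ± 1.11% in heterozygous libraries (29.0 to 31.5%; SD, n = 4 each). Atp5g3 took 42.1 ± 1.04% in knockout (40.6 to 42.9%) and 48.2 ± 1.71% in heterozygous libraries (46.4 to 50.4%). Neither share overlapped between groups, which is a description with no test. The shares of the 3 genes depend on each other, so these shifts are not separate results. Of the Atp5g1 stretches of 50 bases, 11.1% also occur in other annotated genes. Atp5g2 took 22.3 ± 1.28% in knockout and 21.5 ± 1.57% in heterozygous libraries, which overlapped, and 87.4% of its stretches of 50 bases also occur in other annotated genes. Per length, the shares of Atp5g1 were 12.1 ± 0.92% in knockout and 9.85 ± 0.47% in heterozygous libraries; they rest on a median annotated length of 2676 nt, against 718.5 nt for Atp5g3, and their size is uncertain for that reason.

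**Figure D4:**
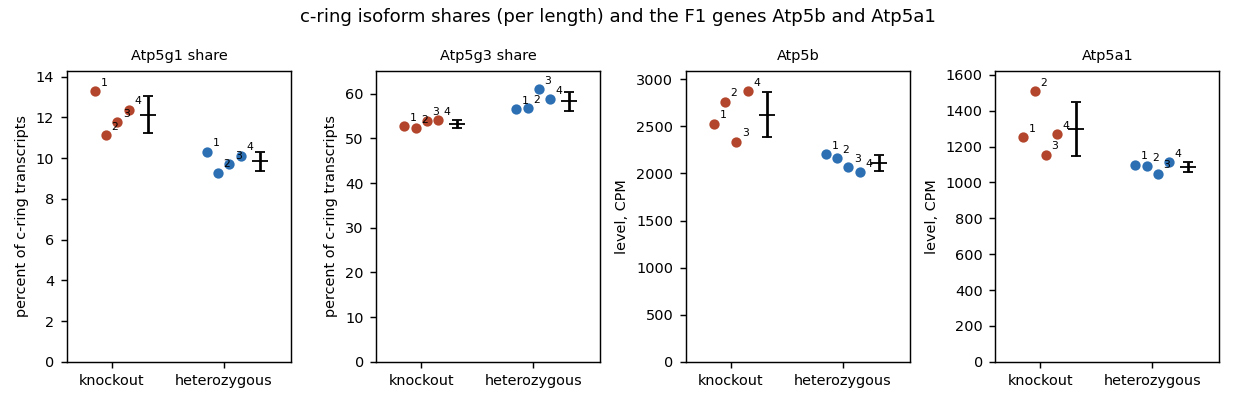
Share of Atp5g1 and Atp5g3 among the transcripts of the 3 c-ring genes, in percent per length, and level of Atp5b and Atp5a1 in CPM, in each library (numbered points) with mean and SD (n = 4 per group). In each panel the knockout and heterozygous points do not overlap: Atp5g1, Atp5b and Atp5a1 are higher and Atp5g3 is lower in knockout libraries.

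Within each complex the genes differed widely in level from one another. On the per-length scale (TPM, which divides counts by transcript length), Atp5b was the highest of all, at 2264 TPM in knockout and 1985 TPM in heterozygous libraries, followed in both groups by Cox4i1 (1792 and 1925 TPM) and Cox6a1 (1686 and 1744 TPM). Next came Ndufa4 (1583 and 1383 TPM) and Cox6b1 (1470 and 1482 TPM), in this order in knockout and in the opposite order in heterozygous libraries. The median gene was at 720 TPM in knockout and 736 TPM in heterozygous libraries for complex III, at 695 and 627 TPM for complex V, at 421 and 480 TPM for complex IV, and at 359 and 396 TPM for complex I. Among the tested genes of complex I, Ndufs1 was at 62.7 TPM in knockout and 62.5 TPM in heterozygous libraries, far below the median of its complex. These levels depend on the annotated length and on reads shared between genes: 17 of the 81 genes share more than 20% of their stretches of 50 bases with another gene, 36 share none, and 21 overlap an exon of a gene on the other strand.

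**Figure D5:**
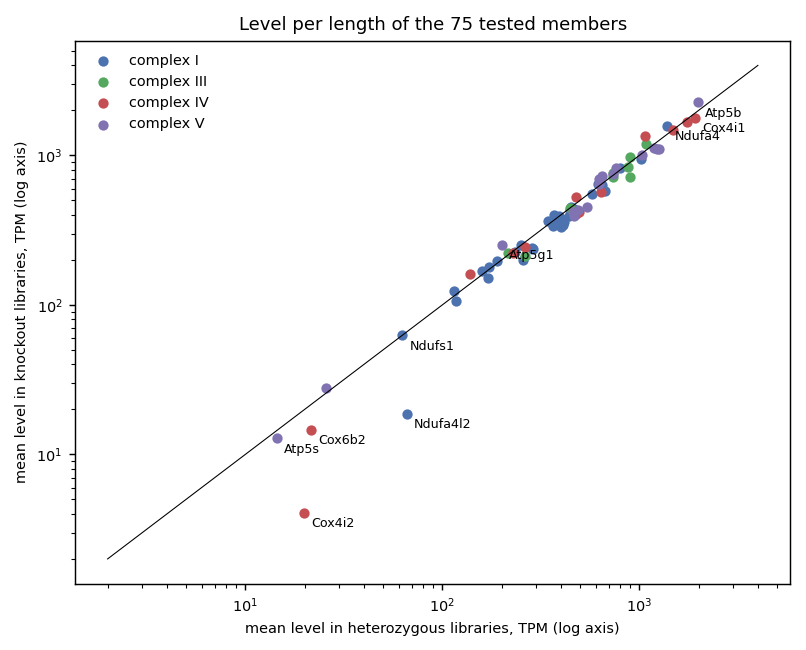
Mean level per length (TPM, log axes) of the 75 tested genes in knockout (vertical) against heterozygous libraries (horizontal), n = 4 each; the line marks equal levels. Genes lie along the line from about the level of Atp5s to that of Atp5b, with Cox4i2 and Ndufa4l2 below it.

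The neighbours of these complexes in the pathway held a few genes that did change. Over 10 lists of 104 tested genes, 7 were called (6.73%), 4 higher and 3 lower, a share below the 9.55% of all genes. Complex II, which enters electrons from succinate, had 0 of 4 genes called in edgeR (0 at an unadjusted p under 0.05), with log2 fold changes from 0.08 (Sdha) to 0.23 (Sdhc). Among 12 genes of electron carriers and nucleotide exchange, Gpd2 and Etfdh fell and Slc25a5 rose. Gpd2, the mitochondrial glycerol-3-phosphate dehydrogenase that feeds electrons to ubiquinone, was at 62.8, 56.2, 55.6 and 76.1 CPM in knockout and 95.5, 125, 148 and 129 CPM in heterozygous libraries. Every knockout library was below every heterozygous one, and the log2 fold change was -0.99 ± 0.17 (SE; edgeR adjusted p = 0.00705) and stayed called whichever of the 8 libraries was left out. With the neuronal, other-cell or pericyte score as a covariate it was -1.23, -1.60 and -1.27 and was not called (edgeR adjusted p = 0.114, 0.581 and 0.130).

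Etfdh, which passes electrons from fatty acid and amino acid oxidation to ubiquinone, was at 88.8, 77.3, 90.6 and 83.5 CPM in knockout and 100.3, 127, 125 and 125 CPM in heterozygous libraries. The groups did not overlap, and Etfdh fell by 0.49 on the log2 scale (edgeR adjusted p = 0.0468); with 1 library left out at a time, it was called in 1 of 8 fits, without heterozygous 1, and it was not called when the filter on low counts was left out (-0.46, adjusted p = 0.0793). Slc25a5, an exchanger of ADP and ATP across the inner membrane, was at 1300, 1644, 1221 and 1354 CPM in knockout and 892, 920, 862 and 1066 CPM in heterozygous libraries, again without overlap. It rose by a log2 fold change of 0.56 ± 0.14 (edgeR adjusted p = 0.0332), called in 2 of the 8 fits, without heterozygous 4 or knockout 3, and in neither upper-quartile scaling nor library size alone (adjusted p = 0.0598 in both). Cycs, cytochrome c, had a log2 fold change of 0.43 ± 0.19 and was not called (adjusted p = 0.195).

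Of the assembly factors, 15 for complex I, 6 for complex III, 23 for complex IV and 3 for the ATP synthase were tested. For complex I, Ecsit rose, with 59.7 ± 7.79 CPM in knockout and 39.3 ± 4.24 CPM in heterozygous libraries (log2 fold change 0.60 ± 0.16, edgeR adjusted p = 0.0403), and Foxred1 fell, with 29.0 ± 5.40 CPM in knockout and 53.5 ± 13.1 CPM in heterozygous libraries (-0.88 ± 0.22, adjusted p = 0.0307). These 2 calls thus pointed in opposite directions. Cox18, which inserts a subunit of complex IV into the membrane, rose, with 38.8 ± 5.91 CPM in knockout and 21.5 ± 3.05 CPM in heterozygous libraries (0.85 ± 0.19, adjusted p = 0.0204). The groups did not overlap for any of the 3. With 1 library left out at a time, Ecsit was called in 1 of 8 fits (without knockout 3), Foxred1 in 3 (without heterozygous 1, heterozygous 4 or knockout 1) and Cox18 in 4 (without heterozygous 2, heterozygous 4, knockout 2 or knockout 3). Complex III and ATP synthase factors had 0 called in edgeR (1 each at an unadjusted p under 0.05).

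Ubiquinone synthesis had 0 of 13 genes called in edgeR (4 at an unadjusted p under 0.05, each higher), with a median log2 fold change of 0.29. Among 15 tested regulators and factors of mitochondrial genome expression, 0 were called (0 at an unadjusted p under 0.05), and Tfam, which packages mitochondrial DNA, had a log2 fold change of -0.12 ± 0.19. Ppargc1a, a coactivator of mitochondrial genes, did not pass the filter on low counts. It was at 0.0511, 0.0871, 0 and 0.231 CPM in knockout and 0.475, 3.93, 1.62 and 3.61 CPM in heterozygous libraries, so every knockout library was lower. The knockout values rest on 1, 1, 0 and 8 counts. Fitted without the filter its log2 fold change was -4.48 ± 1.22 (edgeR adjusted p = 0.0463 over 18033 genes, of which 6.65% were called). Ppargc1b and Pprc1, tested on the same list, had log2 fold changes above 0, at 1.345 ± 0.75 and 0.32 ± 0.26, and were not called. These 3 genes are named because their values were seen. Of 9 genes of import and mitochondrial mass, the chaperone Hspa9 rose, with 268 ± 97.1 CPM in knockout and 146 ± 17.6 CPM in heterozygous libraries (0.87 ± 0.23, adjusted p = 0.0365), called in 2 of the 8 fits, without knockout 2 or knockout 3. With library size alone Hspa9 was not called (0.75, adjusted p = 0.0686), nor was Ecsit (0.48, adjusted p = 0.0919), which upper-quartile scaling did not call either (0.53, adjusted p = 0.0623). With the neuronal, other-cell or pericyte score as a covariate, none of the 7 called genes of these lists was called, beside 62, 0 and 43 called among all genes. With these 3 scores in that order, the log2 fold change of Foxred1 was -0.90, -1.02 and -1.04, that of Etfdh -0.52, -0.47 and -0.40, and that of Cox18 0.87, 1.13 and 1.20. That of Slc25a5 was 0.30, 0.21 and 0.49, that of Ecsit 0.63, 0.48 and 0.21, and that of Hspa9 0.68, 0.018 and 0.17. The citrate synthase gene Cs had a log2 fold change of 0.06 ± 0.16.

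Nuclear genes with the symbols of ribosomal proteins, which form large families, give a scale for these numbers. The cytosolic family was taken by symbols starting with Rpl or Rps and a digit. That rule can also take in paralogs and genes that are not ribosomal proteins. Their median transcript length was 833 nt for the cytosolic and 1223 nt for the mitochondrial ribosome, beside 742 nt for the respiratory genes. Of 91 tested genes of the cytosolic family 5 were called (Rpl12, Rpl39l, Rpl4, Rps2 and Rps4l), each higher, beside 5.53% of all genes called higher. The median log2 fold change was 0.37, and the values ran from -2.81 to 3.08. Of 77 genes of the mitochondrial ribosome 2 were called (Mrpl10 and Mrpl17, each higher), with a median of 0.16. The medians of complexes I, III, IV and V, at 0.05, 0.13, 0.02 and 0.08, were all below both. No test was made of the difference between these families.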

How the data were processed

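RNA sequencing of 4 knockout and 4 heterozygous libraries was analysed from 1 table of raw counts per gene, as deposited by the authors. Single-end reads of 50 nt came from SMART-Seq v4 and Nextera XT libraries, per the labels' protocols; the submitters' processing notes name TopHat2 0.7, Cufflinks 2.2.1 and mm10. The sources used here do not name the counting program. Genes were filtered with filterByExpr (minimum count 10, total 15; 13540 genes, 99.9% of counts), scaled by TMM and tested with edgeR 4.0.16 (quasi-likelihood, robust, no covariate) in R 4.3.3, with Benjamini-Hochberg adjustment over all tested genes. SE is the log2 fold change divided by the square root of F. CPM used TMM-scaled sizes; TPM used the median length of GENCODE vM21 basic protein-coding transcripts. DESeq2 1.42.0, limma 3.58.1 voom, other scalings, filters, covariates and left-out libraries were alternatives. The test was checked on simulated counts, where it missed many changes of 2-fold or less and some larger ones, so a gene not called may still have changed. Libraries of a group differed beyond sampling noise (lowest chi-square over its degrees of freedom 28.9). Members and lists were chosen with earlier results of these data known. Named genes are the 2 most abundant per complex, all isoform families and called genes of other lists; any other was picked with its values in view, as the text says. The values of 1 tested gene are not reported here.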

Additional observations from a re-analysis of the deposited data

Results flagged for a closer look

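Of 76 sets of 4 values examined (named genes, complex sums and isoform shares in each group), 4 had 1 library far from the other 3; chance alone flags about 1 in 20 such sets. Atp5g2 was at 381.8 CPM in knockout 2, above the other knockout libraries, which ran from 206 to 235 CPM. The summed level of complex V was 10130 CPM in knockout 2, with the other knockout libraries between 7778 and 7897 CPM. Hspa9 was at 120.1 CPM in heterozygous 4, below the other heterozygous libraries at 154 to 157 CPM. Etfdh was at 100.3 CPM in heterozygous 1, below the other heterozygous libraries at 125 to 127 CPM.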

How the results depend on the processing

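Under 27 alternatives (26 planned, and the pericyte score added after the data were seen), the counts of called members were mostly 0. DESeq2 called 1 higher (complex V: 1) and 1 lower (complex IV: 1). Limma voom, with and without sample weights, called 2 lower: Cox4i2 (complex IV) and Ndufa4l2 (complex I by its symbol alone). The length offset, its combination with the replicate block and an adjusted p under 0.10 each called 1 lower, in complex IV, against 11.9%, 8.46% and 15.4% of all genes. Over the 8 fits without 1 library, 0 to 2 members were called lower, 0 to 1 in complex I and 0 to 1 in complex IV. The 2, Cox4i2 and Ndufa4l2, appeared without knockout 3. With the neuronal, other-cell and pericyte scores 62, 0 and 43 of all genes were called (0.458%, 0% and 0.318%), against 9.55% without a covariate, so 0 members called there says little. Deviations from the group mean correlated at 0.06, 0.21, -0.05 and 0.02 between same-numbered libraries. Differently numbered libraries were not compared in this way, so these values cannot decide whether the numbers pair the samples. The replicate block gave 0 called members, and 868 called genes (6.41%), against 1293. Of the 7 called neighbours, Gpd2 kept its call under the replicate block (edgeR adjusted p under 0.05), and the other 6 did not.

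Of 702 values of named genes, 71 changed sign, and none of these passed the test with either sign. The log2 fold changes that did so were as follows. With RLE scaling they were -0.00078 for Cox4i1 and -0.0031 for Cox7b. With upper-quartile scaling they were -0.013 for Uqcrc1, -0.059 for Cox4i1, -0.00051 for Cox6a1, -0.060 for Cox7b and -0.036 for Atp5g3. With library size alone they were -0.061 for Uqcrc1, -0.10 for Cox4i1, -0.048 for Cox6a1, -0.0069 for Cox6b1, -0.11 for Cox7b, -0.081 for Atp5g3 and -0.024 for Cox7a2l. DESeq2 gave -0.0012 and limma voom -0.016 for Cox7b. Voom with sample weights gave -0.0014 for Cox4i1, 0.0055 for Cox6b2, -0.095 for Cox7b, -0.022 for Atp5g3 and -0.0029 for Cox7a2l. The length offset gave -0.059 for Cox4i1, -0.028 for Cox6a1, -0.017 for Cox6b1, -0.049 for Cox7b and -0.052 for Atp5g3, and with the replicate block added -0.057, -0.029, -0.018, -0.054 and -0.053 for the same genes. The neuronal score gave -0.096 for Ndufb8, -0.12 for Cox4i1, -0.025 for Cox6a1, -0.054 for Cox6b1, -0.28 for Cox7b, -0.090 for Atp5g2, -0.30 for Atp5g3 and -0.050 for Cox7a2l. The other-cell score gave -0.048 for Ndufb8, -0.12 for Uqcrc1, -0.034 for Atp5a1, 0.19 for Cox6b2, -0.049 for Cox7b, -0.0075 for Atp5g2, -0.21 for Atp5g3 and 0.84 for Ndufa4l2. The pericyte score gave -0.059 for Uqcrc1, -0.093 for Cyc1 and 1.14 for Ndufa4l2. Without heterozygous 1 and knockout 2 they were -0.0026 for Ndufb8, -0.091 for Cox4i1, -0.019 for Cox6a1, -0.058 for Cox6b1, -0.21 for Cox7b, -0.17 for Atp5g3 and -0.045 for Cox7a2l. Over the fits without 1 library, ranges that crossed 0 were -0.0059 to 0.24 for Ndufb8, -0.089 to 0.15 for Cox4i1, -0.040 to 0.18 for Cox6a1, -0.058 to 0.25 for Cox6b1, -0.20 to 0.18 for Cox7b, -0.14 to 0.19 for Atp5g3 and -0.030 to 0.18 for Cox7a2l. The cause was not tested.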
